A study of Mus musculus with 26 samples.

Results

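The Ikaros zinc finger family holds 5 genes in the mouse, Ikzf1 (Ikaros), Ikzf2 (Helios), Ikzf3 (Aiolos), Ikzf4 (Eos) and Ikzf5 (Pegasus). All 5 were taken by name from the 35865 genes that the deposited transcripts could be assigned to, and all 5 passed the filter on low counts. RNA-seq was performed on TCRTg101 cells, CD8+ T cells whose transgenic receptor recognizes an antigen of the murine leukemia line C1498. Cells were sorted from spleens of leukemia-free mice and from spleens and livers of C57BL/6 mice that carried C1498, which gave 14 low-input libraries and 1 library made with oligo-dT priming.

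The labels give the strain as C57BL/6, the age as 6 weeks and the genotype as wild type for every library, and the study's methods place the transgenic receptor on a Rag2-/- background, which all groups then share, controls included. The receptor chains are those of 1 T cell clone and sit in cassettes that drive expression in T cells, so each library reports on 1 specificity. The control group held 2 spleen libraries of naive cells at day 0 (replicates 1 and 2) and 1 made at day 18 from untreated mice (replicate 3). The remaining groups came from leukemia-bearing mice, into which the study had adoptively transferred the cells. They were early liver (2 libraries, day 7), mid liver (replicates 1 and 2 at day 13, replicate 3 at day 14), late liver (replicate 1 at day 18, replicate 2 at day 16), spleen at day 7 (2 libraries), spleen at day 14 (1 library) and undivided cells, which had kept the CellTrace Violet division dye, from spleen at day 18 (1 library). Control replicate 1, mid replicate 1 and late replicate 1 carry the title series TG and all others the series XC. The series was treated as a batch in the fits of fold changes. Labels do not say that libraries came from separate mice, so p-values measure the spread between these libraries. Liver libraries differ from controls both in tissue and in the presence of leukemia. From the day 0 controls they also differ in the days since transfer. The parts of each cannot be told apart. The labels do not say whether the cells of the day 18 control were transferred.

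Ikaros family proteins are DNA-binding factors of lymphocytes. A cluster of zinc fingers near the amino terminus binds DNA, and a pair of fingers at the carboxyl terminus joins family members into homodimers and heterodimers, so the amount of each member relative to the others matters for which dimers can form. Ikaros and Aiolos recruit chromatin remodeling and deacetylase complexes, Helios is known from regulatory T cells and from T cells under chronic stimulation, Eos is known as a partner of Foxp3, and Pegasus is the most divergent member.

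The coding sequence of the second zinc finger is shown first because 4 members encode the same residues there, while their bases differ enough for the RNAs to be told apart in counting. Sequences were read from GENCODE vM21 transcripts (GRCm38) and are given on the coding strand, with the codons of the metal-binding cysteines and histidines in capitals. The finger lies in exon 5 at chr11:11754024-11754086 (plus strand) for Ikzf1, at chr1:69570581-69570643 (minus strand) for Ikzf2, at chr11:98488940-98489002 (minus strand) for Ikzf3 and at chr10:128640229-128640291 (minus strand) for Ikzf4.
Ikzf1 finger 2: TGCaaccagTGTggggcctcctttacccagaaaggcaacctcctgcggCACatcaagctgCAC
Ikzf2 finger 2: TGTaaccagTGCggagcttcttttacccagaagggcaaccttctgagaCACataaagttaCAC
Ikzf3 finger 2: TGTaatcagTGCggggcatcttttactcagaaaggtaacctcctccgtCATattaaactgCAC
Ikzf4 finger 2: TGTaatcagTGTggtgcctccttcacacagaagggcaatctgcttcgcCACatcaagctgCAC
In these 4 members all 21 codons encode the same residues, and the bases were 76.2% to 84.1% identical between pairs. Ikzf5 was 41.3% to 47.6% identical to the others over its own second finger, with 5 of 21 residues the same.

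The finger labelled last here is the last that was found in each coding sequence. It starts at codon 460 of 515 in Ikzf1 and at codon 366 of 419 in Ikzf5. The rest of the carboxyl-terminal pair was not compared. This finger was more alike between Ikzf5 and the others than finger 2, the only other finger compared. Ikzf5 kept 12 to 14 of 21 residues there and 66.7% to 68.3% of the bases. Those of Ikzf1 (exon 8, chr11:11769411-11769473, plus strand) and Ikzf5 (exon 4, chr7:131391739-131391801, minus strand) are shown for comparison.
Ikzf1 last finger: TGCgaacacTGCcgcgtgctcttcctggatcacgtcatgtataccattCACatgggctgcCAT
Ikzf5 last finger: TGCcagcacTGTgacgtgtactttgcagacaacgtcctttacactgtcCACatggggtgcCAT
Over whole transcripts, the share of 31-base words that also occurred in another gene was 0% for Ikzf1 and Ikzf3, 0.128% for Ikzf2 and 0.736% for Ikzf4. For Ikzf5 it was 16.3%, mostly shared with the processed pseudogene Gm10356, so its counts carry more doubt than those of the others. Gm10356 itself was given 0 counts in 12 of the 15 libraries and at most 30.2 in the others.

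Library depth ranged from 22679819 to 70706990 estimated counts over the 14 low-input libraries. The counts of Ikzf1 ran from 6101 to 19233 per library, those of Ikzf3 from 2054 to 7243, those of Ikzf2 from 175 to 2180, those of Ikzf5 from 419 to 1568 and those of Ikzf4 from 48 to 226, so counting error was smallest for Ikzf1 and largest for Ikzf4. Values are in CPM, the counts of a gene relative to all counts of its library, after scaling by trimmed mean of M values (TMM) unless another scale is named. Fold changes are given for members whose change exceeded its standard error (SE). All 10 CD8 T cell markers were detected in every group, with a summed level of 5057 to 10807 CPM. Markers of other cells were low for the most part. Cd79a and Ms4a1 of B cells did not exceed 2.3 and 6.1 CPM in any library, while Cd74 stood at 939.4 and 913.0 CPM in the day 0 controls and at 2.8 to 49.5 CPM in all others. Hepatocyte markers summed to 97.5 to 377.9 CPM in late liver, to 3.3 to 218.7 CPM in mid liver and to 1.5 to 319.2 CPM in control libraries. Although these sums overlapped, 3 of the 5 hepatocyte markers tested rose in mid and late liver versus control (median log2 fold change 7.64), and none fell. Myeloid and leukemia markers summed to 14.5 to 445.8 CPM in control, 13.7 to 42.3 CPM in mid and 27.3 to 50.6 CPM in late libraries, and 4 of the 7 tested fell (median -1.85). Of 5 B cell markers tested, 3 fell (median -1.30). Over all genes tested in mid and late liver versus control, 23.5% rose and 23.8% fell. The summed level of 4 proliferation genes was 8.7 to 38.5 CPM in control, 363.7 to 988.1 CPM in mid and 753.9 to 925.0 CPM in late libraries. The part of these other cells and of cell division in the results was not tested.

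**Figure D1:**
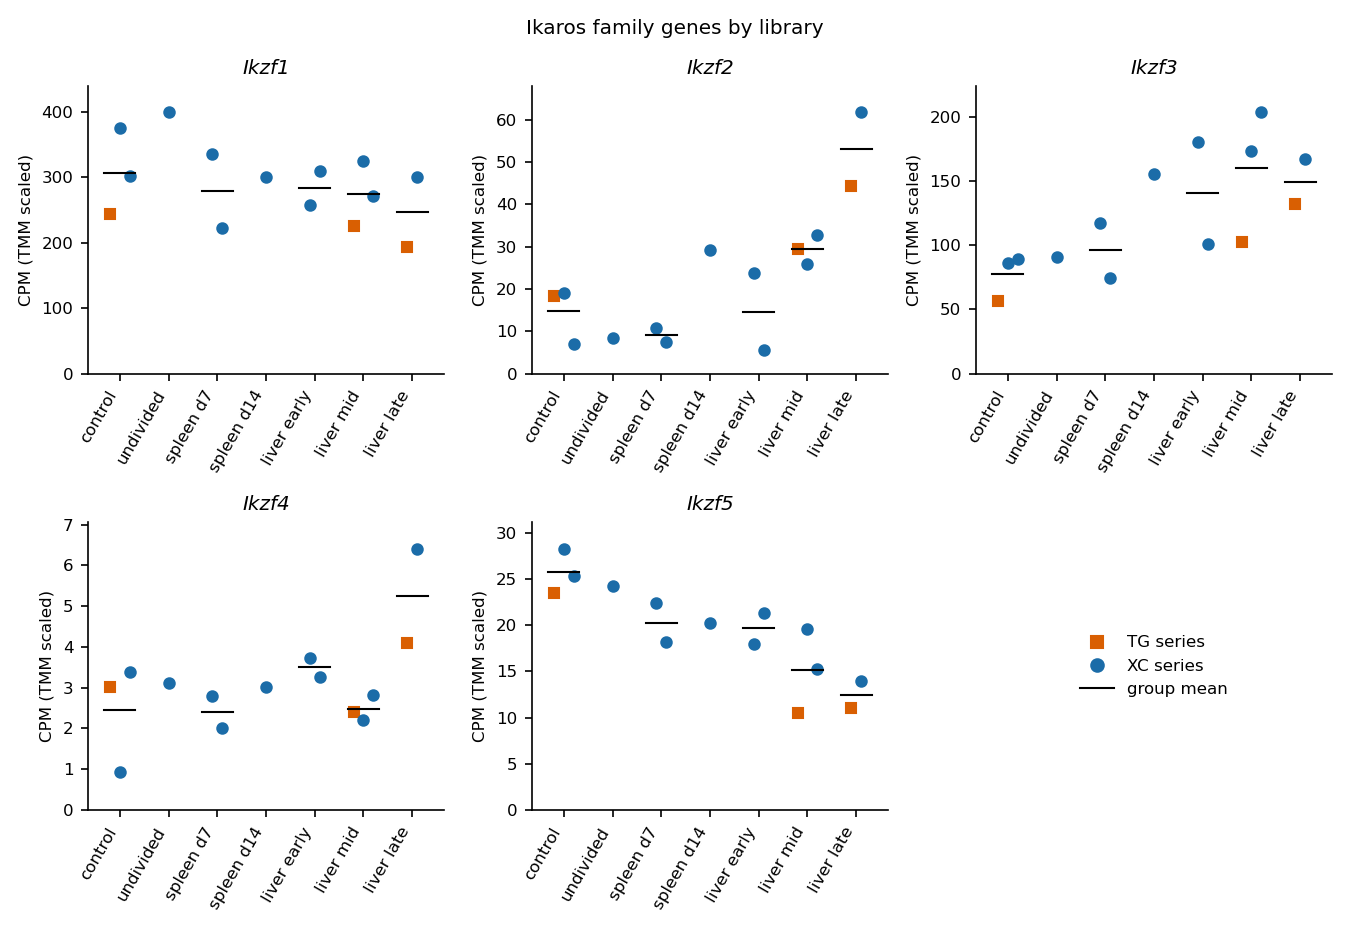
TMM-scaled CPM of each family gene (y axis, a scale of its own in each panel) by group (x axis), with 1 point per library, squares for the TG series, circles for the XC series and a bar at the mean of groups with more than 1 library. Ikzf3 and Ikzf2 lie above the controls in all mid and late liver libraries, Ikzf5 lies below them, and Ikzf1 overlaps them.

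Ikzf3 rose and Ikzf5 fell in mid and late liver libraries relative to control, and Ikzf1, the most abundant member, did not pass the test. Ikzf2 passed the test in late liver, at the edge of the threshold, and in mid liver it passed only when genes of low counts were kept in the fit. Of the 5 members, 2 passed at an adjusted p under 0.05 in mid versus control, where 31.3% of all 14600 genes tested did. In late versus control 3 of 5 passed, against 37.5% of all genes, and in the contrast of mid and late together 2 of 5 passed, against 47.3%. At an unadjusted p under 0.05 the same 2, 3 and, with Ikzf2, 3 members passed in these contrasts, against 46.8%, 50.2% and 56.1% of all genes. With so few members these counts do not set the family apart from other genes. These comparisons use the same 3 control libraries, so they are not independent of each other. In bulk libraries fewer cells of a kind and less RNA per cell cannot be told apart.

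Ikzf3 encodes Aiolos, which is low in naive and higher in activated lymphocytes. Its level was 56.6, 86.0 and 89.4 CPM in the control libraries. It was 102.5, 173.2 and 203.4 CPM in mid liver, and 131.6 and 167.1 CPM in late liver. All 5 of these libraries stood above all 3 controls, and the lowest control and the lowest mid library were both of the TG series. Without TMM scaling the groups overlapped, because mid replicate 1 (83.5 CPM) lay below both XC controls (89.0 and 98.2 CPM) and late replicate 1 (95.1 CPM) between them, although each stood above the TG control (58.1 CPM).

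The fold change of Ikzf3 for mid and late together was 1.03 ± 0.22 on the log2 scale (SE, 5 against 3 libraries, edgeR quasi-likelihood test, adjusted p = 0.00799). It was 1.01 ± 0.23 for mid (adjusted p = 0.0230) and 1.06 ± 0.26 for late (adjusted p = 0.0175), and late did not differ from mid beyond the spread. Without control replicate 1, the only TG control, the estimate for mid and late was again 1.03 but the adjusted p was 0.0583. Without it 6 genes of the 14170 tested were called in that contrast, so the loss was not particular to Ikzf3. Within the XC series the estimate was 0.99 (adjusted p = 0.102), and no gene was called there. The call for mid alone was also lost when other single libraries were left out. Those were control replicate 2 and mid replicates 1 and 3, with adjusted p from 0.0678 to 0.100. There 1, 0 and 0 genes were called in mid versus control, so these losses were not particular to Ikzf3. The late call was lost without control replicate 1 (adjusted p = 0.0794, 1.04% of all genes called). Without late replicate 1 or 2 a lone late library remains, so only the estimates of 0.88 and 1.31 are given. Whether the late call holds without either of them is not read from those fits. Both calls were lost without the series term, at mid with an adjusted p of 0.0815 and at late with 0.104. Of all genes 9.49% and 18.4% were called there.

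Ikzf5 encodes Pegasus, which is expressed in many tissues. Its level was 23.5, 28.3 and 25.4 CPM in the controls. It fell to 10.6, 19.6 and 15.3 CPM in mid liver and to 10.999 and 13.99 CPM in late liver. Every mid and late library lay below every control, with and without TMM scaling and within each series.

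The change of Ikzf5 was -0.91 ± 0.18 for mid and late together (log2, SE, edgeR, adjusted p = 0.00726), -0.81 ± 0.20 for mid (adjusted p = 0.0251) and -1.01 ± 0.23 for late (adjusted p = 0.0160). Without control replicate 1 the combined estimate was -0.78 (adjusted p = 0.0592), and in the XC series alone it was -0.80 (adjusted p = 0.0998). The call at mid was lost under the same single left-out libraries as that of Ikzf3, with adjusted p from 0.0689 to 0.115. In those fits at most 1 gene was called at mid. The call at late was lost without control replicate 1 (adjusted p = 0.0805, 1.04% of all genes called). Without late replicate 1 or 2, which leaves a lone late library, the estimates were -1.04 and -0.91, and no call is read there. Without the series term the mid call was lost with an adjusted p of 0.0880, where 9.49% of all genes were called. The 2 early liver libraries stood at 18.0 and 21.3 CPM, those of spleen at day 7 at 22.4 and 18.1 CPM and that of spleen at day 14 at 20.3 CPM. All of these lay below the lowest control on this scale, but the changes of -0.53 ± 0.24 in early liver (adjusted p = 0.492) and -0.48 ± 0.23 in spleen at day 7 (adjusted p = 0.823) did not pass the test. The undivided cells, at 24.2 CPM, lay within the control range.

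Ikzf2 encodes Helios, which regulatory T cells express and which also appears in chronically stimulated T cells. Its level was 18.2 and 19.1 CPM in the day 0 controls and 7.1 CPM in the day 18 control. It was 29.6, 25.9 and 32.7 CPM in mid liver and 44.3 and 61.8 CPM in late liver. The mid libraries all stood above the controls and the late libraries above the mid libraries, in both series and with or without TMM scaling. The remaining XC libraries split. Undivided cells (8.3 CPM), both day 7 spleen libraries (10.9 and 7.6 CPM) and early liver replicate 2 (5.5 CPM) were near the day 18 control, whereas spleen at day 14 (29.3 CPM) and early liver replicate 1 (23.8 CPM) were above every control.

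The fold change of Ikzf2 in late versus control was 1.82 ± 0.61 (log2, SE, 2 against 3 libraries, edgeR, adjusted p = 0.0479). It was 0.97 ± 0.55 in mid versus control (adjusted p = 0.200, or 0.00584 with no filter on low counts) and 1.39 ± 0.52 for both together (adjusted p = 0.0575). In late versus control the estimate without 1 library lay between 1.44 and 2.15. Without late replicate 1 or 2 a lone late library remains, so only the estimates of 2.15 and 1.44 are given and no call is read there. Without control replicates 1, 2 and 3, 1.04%, 23.8% and 28.8% of all genes were called in late versus control. The late call of Ikzf2 was lost in each of these fits, with adjusted p of 0.113, 0.0720 and 0.0938. It was also lost without the series term (1.82, adjusted p = 0.0544), with counts scaled from TPM (1.38, adjusted p = 0.109) and in the XC series alone (2.23, adjusted p = 0.202). Between late and mid liver the difference of 0.84 ± 0.61 did not pass the test (adjusted p = 0.935). No gene passed in that contrast with edgeR (0% of 14600), 5.34% of genes and no member had an unadjusted p under 0.05 there, and DESeq2 called 34 genes.

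Because Helios marks regulatory T cells, the other markers of those cells are given beside it. Foxp3, the defining factor of regulatory T cells, was detected in all libraries but at 0.26 to 0.80 CPM in control, 0.69 to 1.97 CPM in mid and 2.22 to 2.98 CPM in late libraries. It rose by 1.56 ± 0.57 in mid and late versus control (log2, SE, edgeR, adjusted p = 0.0497). Cd4, the helper lineage coreceptor, was at 0.13 to 5.35 CPM in control and 0.42 to 0.99 CPM in mid and late libraries. The 5 markers of regulatory and helper T cells summed to 4.3 to 36.9 CPM in control, 158.0 to 297.8 CPM in mid and 223.4 to 435.0 CPM in late libraries, most of it from Il2ra and Ctla4, which activated CD8 T cells also express. Each of the 5 had counts in every group, and Il2ra and Foxp3 are also among the Ikaros-regulated genes below. Their part in the Ikzf2 values was not tested.

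Ikzf1 encodes Ikaros, the founding member, required for lymphocyte development. Its level was 243.1, 375.8 and 301.4 CPM in control, 225.9, 324.3 and 271.3 CPM in mid liver and 192.9 and 300.9 CPM in late liver. The groups overlapped. The lowest library of each of these groups was that of the TG series. The change for mid and late together was -0.22 ± 0.16 (log2, SE, edgeR, adjusted p = 0.265). Estimates for the single time points were -0.18 ± 0.18 at mid (adjusted p = 0.450), -0.27 ± 0.20 at late (adjusted p = 0.297), -0.27 ± 0.20 at early (adjusted p = 0.674) and -0.29 ± 0.23 in spleen at day 7 (adjusted p = 0.915). The highest level among the low-input libraries, 399.3 CPM, was that of the undivided cells.

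Ikzf4 encodes Eos and was the least abundant member. Its level was 3.0, 0.94 and 3.4 CPM in control, 2.4, 2.2 and 2.8 CPM in mid liver and 4.1 and 6.4 CPM in late liver. Both late libraries stood above all controls and all mid libraries on this scale. Without TMM scaling late replicate 1 (2.96 CPM) fell among the controls. The change was 1.08 ± 0.53 in late versus control (log2, SE, edgeR, adjusted p = 0.129), 0.54 ± 0.44 for mid and late together (adjusted p = 0.331) and 1.08 ± 0.53 in late versus mid (adjusted p = 0.910), none of which passed the test.

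**Figure D2:**
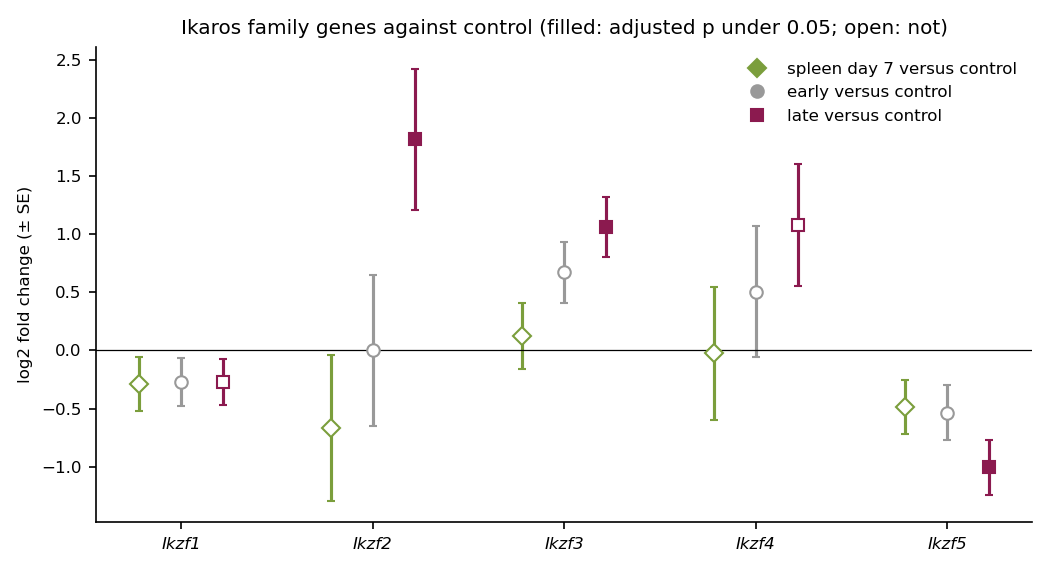
Log2 fold change relative to control (y axis, ± SE from edgeR) of each family gene (x axis) in day 7 spleen (diamonds), early liver (circles) and late liver (squares), filled where the adjusted p was under 0.05. Only late liver has filled points, for Ikzf2 at 1.82, Ikzf3 at 1.06 and Ikzf5 at -1.01.

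At day 7 the liver and spleen libraries were all of the XC series, while the controls they were compared with included the TG library, control replicate 1. No member passed in early liver versus control, in spleen at day 7 versus control or in early liver versus spleen at day 7, and in each of these edgeR called 0% of all genes (0 of 14600, 0 of 15449 and 0 of 15449). At an unadjusted p under 0.05 the shares were 10.2%, 6.28% and 9%, and Ikzf3 in early liver was the only member among them (0.67 ± 0.26, log2, SE, adjusted p = 0.468). DESeq2 called 350, 13 and 60 genes in these comparisons, none of them a member.

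The 2 early libraries were unlike each other. Replicate 1 had 180.2 CPM of Ikzf3, within the range of the mid libraries (102.5 to 203.4 CPM). Its 23.8 CPM of Ikzf2 lay above every control and just below the lowest mid library (25.9 CPM). Replicate 2 had 100.9 and 5.5 CPM, close to the controls. The proliferation genes summed to 224.1 CPM in replicate 1 and to 7.0 CPM in replicate 2. With replicate 2, the library near the controls, left out, the estimate for Ikzf3 in early versus control was 1.02 (log2, edgeR). With replicate 1 left out in its place it was 0.19. Each of these fits holds 1 early library, so only the estimates are given. Which library lay near the controls was read from these same values, so the estimate of 1.02 is no separate test of Ikzf3. Against day 7 spleen, Ikzf3 was 0.55 ± 0.30 higher in early liver (adjusted p = 0.568) and Ikzf2 0.67 ± 0.65 higher (adjusted p = 0.761), and without early replicate 1 the estimate for Ikzf2 was -0.75.

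In spleen at day 14, Ikzf3 was at 155.6 CPM, Ikzf2 at 29.3 CPM, Ikzf1 at 299.7 CPM, Ikzf4 at 3.0 CPM and Ikzf5 at 20.3 CPM. Ikzf3 and Ikzf2 thus lay within the range of the mid liver libraries and above all controls. No member passed in mid liver versus spleen at day 14, where 1 gene of 15449 was called (0.00647%) and 5.81% of genes but no member had an unadjusted p under 0.05. The lone library was assumed to vary like the other groups. The largest change relative to its error was that of Ikzf5, at -0.31 ± 0.28 (adjusted p = 0.731).

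Undivided cells share their hosts' leukemia but had not diluted the dye. They had 91.0 CPM of Ikzf3, 8.3 CPM of Ikzf2, 24.2 CPM of Ikzf5 and 3.1 CPM of Ikzf4, each within or next to the control range. No member passed in undivided versus control, where edgeR and DESeq2 both called 0% of genes (1.25% had an unadjusted p under 0.05 in edgeR, no member among them). Mid and late liver exceeded the undivided library by 2.22 ± 0.89 for Ikzf2 (adjusted p = 0.180) and by 0.99 ± 0.34 for Ikzf3 (adjusted p = 0.143). Ikzf5 was lower by -0.67 ± 0.27 (adjusted p = 0.175) and Ikzf1 by -0.45 ± 0.24 (adjusted p = 0.263). None of these passed in this comparison of 5 libraries with 1, where 0% of all genes were called by edgeR and 25.3% had an unadjusted p under 0.05, Ikzf2, Ikzf3 and Ikzf5 among them. DESeq2 called 1748 genes there, of the members Ikzf2.

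Levels of different genes were compared in TPM, the deposited unit that is scaled for transcript length. The order of the members was Ikzf1, Ikzf3, then Ikzf5 and Ikzf2, then Ikzf4 in control libraries. Ikzf1 had 65.3 to 137.8 TPM, Ikzf3 16.4 to 34.3 TPM, Ikzf5 4.8 to 9.4 TPM, Ikzf2 2.5 to 6.3 TPM and Ikzf4 0.31 to 0.87 TPM. Ikzf5 and Ikzf2 were not separated in this order, since Ikzf2 was the higher of the pair in control replicate 1. In all mid and late libraries Ikzf2 exceeded Ikzf5. The summed TPM of the family was lower in the 3 low-input TG libraries (60.01 to 92.2) than in the XC libraries (147.5 to 203.6), so each member was also expressed as a share of the family in its own library.

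The share of Ikzf1 fell and that of Ikzf3 rose. From control to mid and late liver the changes were -21.1 and 20.2 percentage points in shares of TPM. In shares of estimated counts they were smaller, at -16.2 and 14.5 percentage points. Ikzf1 made up 70.9%, 74.6% and 71.3% of the family's TPM in the controls. In mid liver it made up 55.9%, 57.8% and 48.0%, and in late liver 41.1% and 53.1%. The mean fell from 72.3% ± 2.0 (SD, n = 3) in control to 51.2% ± 6.8 (SD, n = 5) in mid and late libraries (exact permutation test over libraries, two-sided, p = 0.01786).

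Ikzf3 made up 17.8%, 16.7% and 20.9% in control, 35.0%, 35.1% and 42.9% in mid liver and 45.7% and 34.7% in late liver. No mid or late library overlapped the controls. The mean rose from 18.5% ± 2.2 (SD, n = 3) to 38.7% ± 5.2 (SD, n = 5), with an exact permutation p of 0.01786. In late replicate 1 Ikzf3 (27.4 TPM) exceeded Ikzf1 (24.6 TPM), the only one of the 15 libraries in which it did. In estimated counts, which are not scaled for transcript length, Ikzf1 was the higher in that library (8859 against 6043).

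The share of Ikzf5 fell from 5.36% ± 0.35 (SD, n = 3) to 3.002% ± 0.54 (SD, n = 5), also with an exact permutation p of 0.01786. Ikzf2 went from 3.50% ± 2.03 to 6.46% ± 2.32 (SD, exact permutation p = 0.125, n = 3 and 5) and Ikzf4 from 0.41% ± 0.20 to 0.71% ± 0.28 (exact permutation p = 0.179), neither of which passed. These were 5 tests, not independent since the shares sum to a whole, and 0.01786 is the smallest p that 56 permutations allow. The permutations took no account of the series. Within the series the shares went the same way, from 70.9% to 48.5% (TG) and from 72.9% to 53.0% (XC) for Ikzf1, and from 17.8% to 40.3% (TG) and from 18.8% to 37.6% (XC) for Ikzf3.

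The ratio of Ikzf1 to Ikzf3 TPM within a library gives the same data as 1 number. It was 3.98, 4.47 and 3.41 in the controls and 4.27 in undivided cells. Day 7 spleen had 2.90 and 3.31 and spleen at day 14 had 1.99. Early liver replicate 2 had 3.13 and replicate 1 had 1.30, mid liver had 1.60, 1.65 and 1.12, and late liver had 0.90 and 1.53. All leukemia-bearing libraries apart from the undivided one were thus below the lowest control, and all mid and late liver libraries below the spleen libraries.

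**Figure D3:**
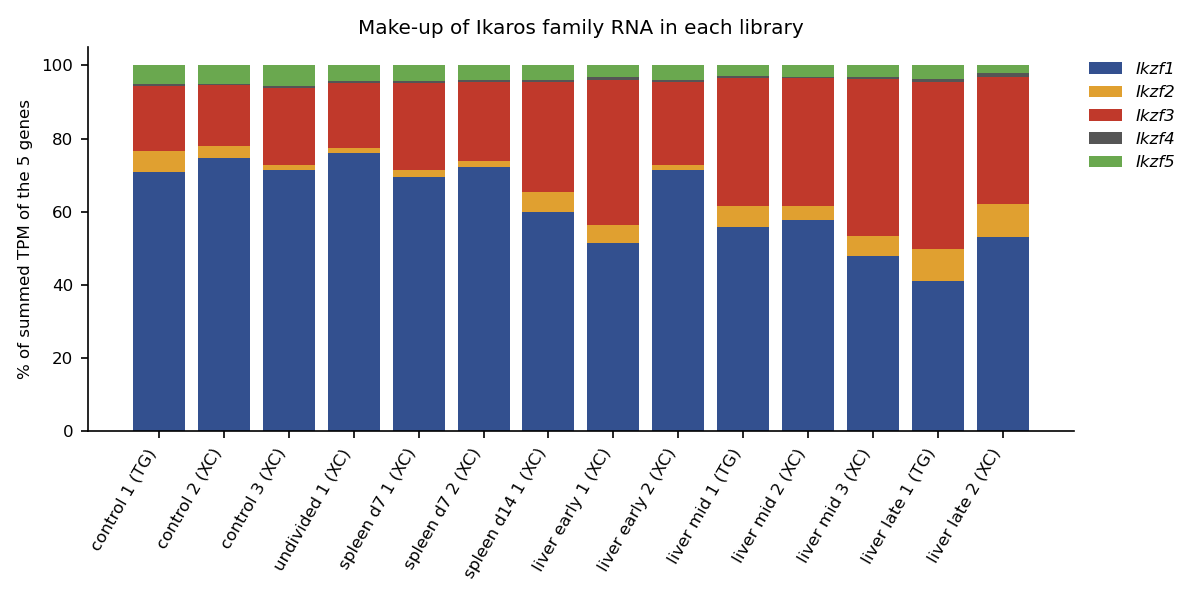
Percent of the summed TPM of the 5 genes that each gene made up (y axis, stacked to 100%) in each of the 14 low-input libraries (x axis, group, replicate and series). Ikzf1 takes 70.9% to 74.6% in the controls and 41.1% to 57.8% in mid and late liver, and the Ikzf3 segment widens from at most 20.9% to at least 34.7%.

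Kallisto divides a gene's counts among its annotated transcripts, which allowed the transcripts of each member to be followed. Transcripts that made up at least 10% of a member's counts on average were tested, 7 in all, with exact permutation tests of mid and late liver (n = 5) against control (n = 3). Ikzf4 was left out of these tests, since its counts went down to 48 in a library, and p-values are given before correction for the 7 tests. For Ikzf3, the coding transcript Ikzf3-201 made up 65.1%, 69.7% and 73.2% of counts in control. It rose to 81.1%, 79.7% and 81.8% in mid and 82.4% and 82.6% in late libraries. The mean rose from 69.3% ± 4.0 to 81.5% ± 1.2 (SD, exact permutation p = 0.01786).

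Ikzf3-203 is annotated as a retained-intron transcript (chr11:98512688-98546031, minus strand) at the 5′ end of the gene. It made up 24.5%, 19.8% and 17.9% in control, 8.9%, 9.4% and 7.8% in mid and 5.2% and 6.0% in late libraries. The mean fell from 20.7% ± 3.4 to 7.46% ± 1.83 (SD, exact permutation p = 0.01786). Early liver (15.4% and 23.4%), day 7 spleen (13.3% and 22.3%) and undivided cells (18.2%) were not separated from the controls apart from the lower library of each day 7 pair. Spleen at day 14 (12.6%) lay below every control.

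Ikzf2 showed the same direction, with lower counts. The retained-intron transcript Ikzf2-205 (chr1:69681559-69687140, minus strand) made up 43.3%, 38.6% and 35.5% of Ikzf2 counts in control, 13.0%, 15.3% and 23.5% in mid and 21.7% and 17.5% in late libraries. Its mean fell from 39.1% ± 3.9 to 18.2% ± 4.4 (SD, exact permutation p = 0.01786). Early liver had 25.0% and 38.9%, day 7 spleen 36.5% and 17.0% and undivided cells 31.8%, so that 1 library of each day 7 pair and the undivided library lay below the lowest control. Spleen at day 14 (27.6%) lay below it too. The share of the coding transcript Ikzf2-201 was not settled by the test. Its mean went from 43.1% ± 4.0 to 65.1% ± 9.9 (SD, exact permutation p = 0.0357), a difference of 22.01 percentage points, from 47.6% to 74.7% in the TG series and from 40.9% to 58.7% in the XC series. This would not pass a Benjamini-Hochberg correction over the 7 tests. With shares of TPM in place of counts, or only the first run of each library, the exact p was 0.0536. Leaving out any library other than control replicate 1 also took it over 0.05 (0.0571 to 0.0952).

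Retained-intron transcripts of all genes moved with these shares. They took 9.12% to 9.58% of all counts in the controls, 6.87% to 7.97% in mid and 5.43% to 6.63% in late libraries (means 9.40% ± 0.24 and 6.79% ± 0.91, SD, exact permutation p = 0.01786). The decrease was to 72.2% of the control level over all genes, to 36.0% for Ikzf3-203 and to 46.4% for Ikzf2-205. The part of the general decrease in the shares of these members was not tested. The oligo-dT library had 0 counts on Ikzf2-205 and 0.717% of Ikzf3 counts on Ikzf3-203, against 43.3% and 24.5% in the low-input library of day 0 cells in the same series.

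**Figure D4:**
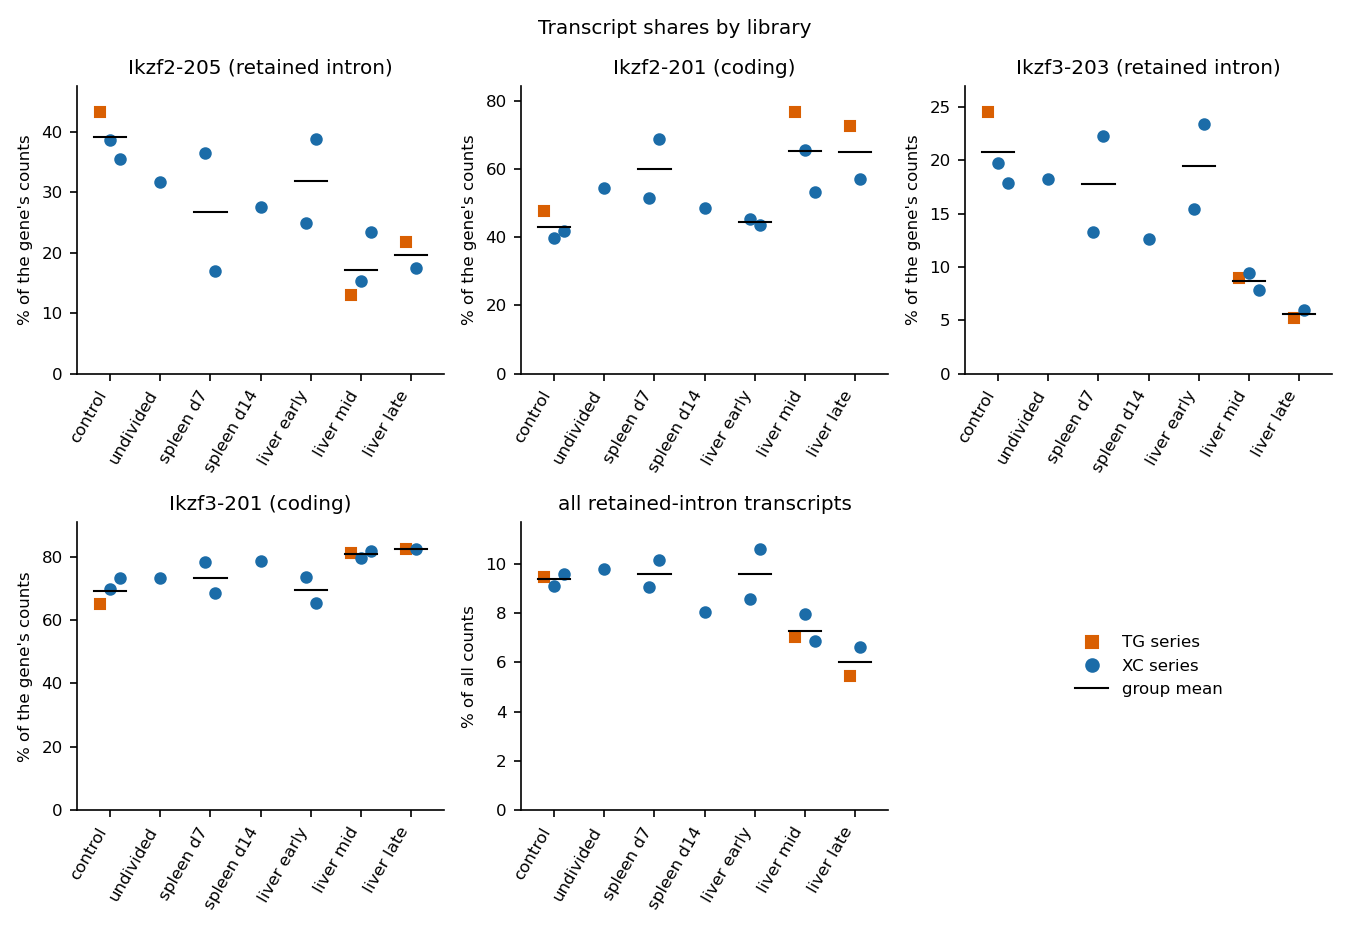
Percent of a gene's estimated counts on each transcript (y axis, first 4 panels) and percent of all counts on retained-intron transcripts (last panel) by group (x axis), 1 point per library, squares for TG and circles for XC, with a bar at the group mean. The shares of Ikzf2-205 and Ikzf3-203 are at most 23.5% and 9.4% in mid and late liver and at least 35.5% and 17.9% in the controls, and the share over all genes is lower there too.

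Ikzf1 had 2 main transcripts whose shares followed the series and not the groups. They differ by an exon of 60 bases (chr11:11740950-11741009, plus strand) that lies in the coding sequence of Ikzf1-203 and is skipped in Ikzf1-204. Ikzf1-204 also ends 814 bases further downstream. Their annotated starts differ as well (chr11:11685925 for Ikzf1-203 and chr11:11686213 for Ikzf1-204). The skipped exon is shown because the split between the transcripts turns in part on reads from it.
Ikzf1-203 exon 4: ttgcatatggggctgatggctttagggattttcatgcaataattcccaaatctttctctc
Ikzf1-203 made up 11.4%, 5.1% and 10.8% of Ikzf1 counts in the low-input TG libraries (control, mid and late) and 43.2% in the oligo-dT library of that series. In the 11 XC libraries it made up 47.8% to 55.9%, whatever the group. Between control and mid and late libraries it changed by -5.6 percentage points (exact permutation p = 0.554) and Ikzf1-204 by 9.8 (exact permutation p = 0.518), and both signs turned when single libraries were left out, for both transcripts when this was control replicate 2 (2.42 and -1.21).

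Ikzf1-201 lacks a coding exon of 261 bases (chr11:11748311-11748571, plus strand) that holds the first DNA-binding finger. It was at 0 in the TG libraries and made up 4.6% to 12.2% in the XC libraries. Because of this split, no change in the use of Ikzf1 transcripts between groups can be read from the pooled libraries, and Ikzf5-201 (92.5% of Ikzf5 counts in control and 94.9% in mid and late libraries, exact permutation p = 0.5) did not pass either.

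**Figure D5:**
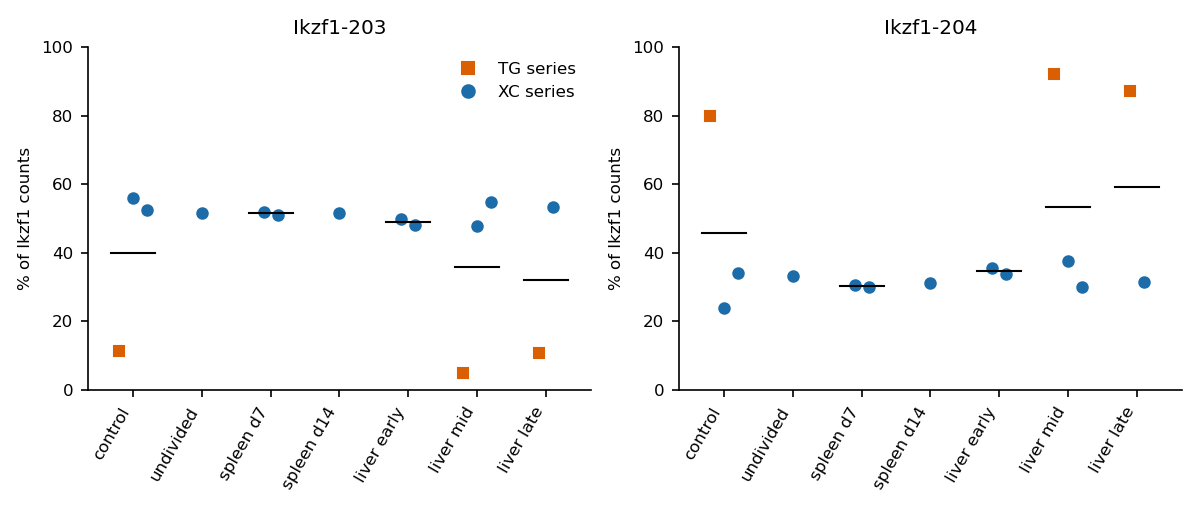
Percent of Ikzf1 estimated counts on Ikzf1-203 (left) and Ikzf1-204 (right) (y axis) by group (x axis), 1 point per library, with a bar at the group mean. The 3 low-input TG libraries (squares) lie at 5.1% to 11.4% for Ikzf1-203 while the XC libraries (circles) lie at 47.8% to 55.9%.

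Partners of Ikaros proteins were followed in lists chosen by function. Of 17 genes for the NuRD remodeling complex and other co-repressors, all tested, 6 rose and 3 fell in mid and late liver versus control (edgeR, adjusted p under 0.05), with a median log2 fold change of 0.23, where that of all genes was -0.05 and 23.5% of all genes rose and 23.8% fell. The histone deacetylase Hdac1 rose by 1.04 ± 0.20 (log2, SE, adjusted p = 0.00700) and the histone chaperone Rbbp4 by 0.71 ± 0.18 (adjusted p = 0.0136). The remodeling ATPase Chd3 changed by -0.59 ± 0.16 (adjusted p = 0.0158) and the co-repressor Ctbp2 by -0.98 ± 0.30 (adjusted p = 0.0265).

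Cereblon is the substrate receptor of the ubiquitin ligase through which thalidomide analogs remove Ikaros and Aiolos. Of its 5 genes, 2 rose and 1 fell, with a median of 0.05, against the same 23.5% and 23.8% of all genes. Crbn itself, the receptor, changed by -0.64 ± 0.20 (adjusted p = 0.0305), the adaptor Ddb1 by 0.78 ± 0.18 (adjusted p = 0.0103) and the RING subunit Rbx1 by 0.66 ± 0.22 (adjusted p = 0.0377). Cul4a, the scaffold, did not pass (-0.16 ± 0.14, adjusted p = 0.388). Of 6 genes for the kinase CK2 and the phosphatase PP1, which set Ikaros phosphorylation, 2 rose and none fell, with a median of 0.32, again beside 23.5% and 23.8% of all genes. These were the regulatory subunit Csnk2b (1.03 ± 0.21, adjusted p = 0.00729) and the catalytic subunit Ppp1ca (0.79 ± 0.20, adjusted p = 0.0146), while Ppp1cc (0.40 ± 0.15, adjusted p = 0.0529) and Csnk2a1 (0.24 ± 0.14, adjusted p = 0.195) did not pass.

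Of 20 genes known as bound or regulated by Ikaros family proteins in lymphocytes, 17 were tested, and Rag1, Notch3 and Hes1 had too few counts. Of the 17, 7 rose and 5 fell in mid and late liver, 6 rose and 5 fell in mid alone, and 6 rose and 4 fell in late alone. Over all genes 23.5% rose and 23.8% fell for mid and late together, 17.3% and 13.9% in mid alone and 19.8% and 17.7% in late alone. The median for mid and late was 0.37. Il2ra, the high-affinity interleukin-2 receptor chain, rose from 0.74 to 1.88 CPM in control to 77.2 to 139.5 CPM in mid and late libraries (6.51 ± 1.21, log2, SE, adjusted p = 0.00756). Dntt, the terminal transferase of developing lymphocytes, went from 8.4 to 18.8 CPM down to 0.09 to 1.49 CPM (-5.26 ± 0.88, adjusted p = 0.00657). Rag2 (-3.52 ± 0.50, adjusted p = 0.00557) and the Notch regulator Dtx1 (-3.31 ± 0.61, adjusted p = 0.00747) fell as well. Rag2 was at 2.1 to 3.7 CPM in control and at 0.14 to 0.65 CPM in mid and late libraries, counts that the annotated gene received although the methods place the cells on a Rag2-/- background. In early liver, day 7 spleen and undivided cells versus control edgeR called 0% of all genes. The lack of calls among these 4 lists there is thus not particular to them.

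Over the 14 low-input libraries, the genes whose log2 CPM was most like that of each member were found by Pearson correlation, as a description of libraries that share series and depth. For Ikzf5 these were the co-chaperone Dnajc7 (r = 0.98), 4833420G17Rik (r = 0.98) and the Polycomb component Rybp (r = 0.98). For Ikzf3 they were the splicing factor Sf3a1 (r = 0.98), the repressor E2f6 (r = 0.97) and the proline synthesis enzyme Aldh18a1 (r = 0.96), and the most opposite were Rabac1 (r = -0.96), N4bp2l2 (r = -0.95) and the forkhead factor Foxo4 (r = -0.94). For Ikzf2 they were the cell cycle factor E2f2 (r = 0.96), the adhesion receptor Cd44 (r = 0.95) and the adaptor Lat2 (r = 0.95), and the most opposite were Stx1a (r = -0.93), Vmn2r97 (r = -0.92) and Cyp2s1 (r = -0.92).

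For Ikzf1 the most alike were Eps15l1 (r = 0.91), the exonuclease Xrn2 (r = 0.90) and the kinase Clk2 (r = 0.89). Ikzf4, with the lowest counts, had the weakest likeness, to Gemin4 (r = 0.79), Gm14295 (r = 0.78) and Aif1l (r = 0.75). Between members the correlation was 0.71 for Ikzf1 with Ikzf5, 0.60 for Ikzf2 with Ikzf3, -0.64 for Ikzf2 with Ikzf5 and 0.03 for Ikzf1 with Ikzf3 (Pearson, 14 libraries).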

How the data were processed

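RNA from sorted TCRTg101 cells was sequenced as low-input libraries. The authors quantified reads with kallisto (version and annotation not given in the sources used here, builds mm10 and GRCm38 per the labels) and deposited estimated counts (expected counts, not whole numbers) and TPM per transcript for each of 26 runs. Here transcripts were matched to GENCODE vM21 (116622 of 118783, holding 98.95% to 99.25% of counts), runs were summed into 15 libraries, and gene sums were rounded.

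Genes reaching 10 counts in 6 or more libraries were fitted in edgeR 4.0.16 (R 4.3.3, robust quasi-likelihood, two-sided, TMM factors 0.724 to 1.22) with group and series as terms. One fit held the 11 control, undivided and liver libraries (14600 genes) and another added the 3 spleen libraries of leukemia-bearing mice (15449 genes). P-values were adjusted by Benjamini-Hochberg over all genes, with a threshold of 0.05. Log2 fold changes are given for members whose change exceeded its SE. Shares of TPM and of estimated counts were compared by exact permutation tests over libraries in Python 3.11.15 with numpy 2.4.6, and log2 CPM used a prior count of 2. These permutations, unlike the edgeR fits, took no account of the series. Depth is given in the report, and intervals for counting error are not, since the number of libraries limits the precision.

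Named genes were all members, the 3 genes most like each (for Ikzf2 and Ikzf3 also the 3 most opposite), and up to 4 genes with the smallest p in mid and late versus control from each pathway list. Foxp3, Cd4, Cd79a, Ms4a1, Cd74 and Ctla4 were named as cell markers. Members and lists were chosen with earlier results of these data known. Alternatives were DESeq2 1.42.0, other normalization, filters, control sets and runs, counts scaled from TPM, no series term, the XC series alone and each library left out. The tests were tried on simulated data. The oligo-dT library entered no test. Some items are not reported here.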

Additional observations from a re-analysis of the deposited data

Results flagged for a closer look

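Ikzf2 moved to opposite sides of the control mean in mid and late liver and in day 7 spleen. Its mean log2 CPM was 1.11 above the control mean in mid liver and 1.95 above it in late liver, with every library above, and -0.57 relative to it in day 7 spleen, with both libraries below. The difference between these effects was not tested. Early liver, of the same day as these spleen libraries, did not share the pattern, since its libraries (23.8 and 5.5 CPM) lay above and below the whole control range (7.1 to 19.1 CPM). The day 18 control lay below both day 7 spleen libraries, and time as well as tissue differed between the groups.

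The oligo-dT library of day 0 cells, which entered no comparison, had more Ikzf1 and Ikzf5 than any low-input control on the unscaled CPM scale. Ikzf1 stood at 712.3 CPM there and at 249.6 to 388.6 CPM in the controls, and Ikzf5 at 45.4 CPM against 24.1 to 29.3 CPM. Ikzf4 had 0 of 23015292 counts, which allows up to 0.130 CPM (3 counts, counting error only), against 3.11 CPM in the low-input day 0 library of the TG series. This is 1 library made with another priming method, so it has no replicate check.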

How the results depend on the processing

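No fold change given for a member in early, mid or late liver versus control changed direction under any alternative or left-out library. Calls were less stable. In the XC series alone no member was called in mid, late or mid and late versus control (0 each), with 0.99 for Ikzf3 and -0.80 for Ikzf5 in mid and late, and edgeR called no gene there at all. Without the series term 0 members were called at mid and 1 at late, beside 9.49% and 18.4% of all genes. Ikzf2 in mid versus control passed with no filter (0.97), which made 3 members called there, beside 19.4% of all genes. In mid and late versus control it passed with no filter (1.38), with all 14 libraries in the fit (1.41) and with DESeq2 (1.42). Against undivided cells 1 member was called with no filter, beside 8.55% of all genes, and 1 with DESeq2, beside 12.2%, Ikzf2 each time. With 1 control left out, 0 to 2 members were called in late versus control, beside 1.04% to 28.8% of all genes. In early versus control 0 were called then, beside 0% to 0.133%. With any 1 library left out at a time, 0 to 2 members were called in mid versus control, beside 0% to 21.9% of all genes. In mid and late versus control 0 to 2 were called, beside 0.0423% to 42.7%. The combined estimate ranged from 0.94 to 1.17 for Ikzf3 and from -0.999 to -0.78 for Ikzf5, and among single libraries only the loss of control replicate 1 ended these calls. Ikzf2 in early liver versus day 7 spleen ranged from -0.75 to 1.37. The transcript share differences ranged from -19.8 to 2.42 points for Ikzf1-203, from -1.21 to 26.7 for Ikzf1-204 and from -0.39 to 5.56 for Ikzf5-201, and that of Ikzf5-201 was -2.82 with shares of TPM. Family shares kept their side of the threshold throughout. The cause of these differences was not tested. No paired analysis was possible because the labels give no replicate numbers shared between groups. Low counts limit Ikzf4 most.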
